A study of Komagataella pastoris with 4 samples.

Results

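The enzymes of methanol use were examined in the methylotrophic yeast *Pichia pastoris* (*Komagataella phaffii*, which the labels name *Komagataella pastoris*) while it grew on ethanol instead of methanol. They were the rows of the count table annotated as alcohol oxidase, peroxisomal catalase, the enzymes that carry formaldehyde to carbon dioxide, dihydroxyacetone synthase and dihydroxyacetone kinase. These were 9 of 5427 rows. Of the 9, 3 (formate dehydrogenase, AOX1 and catalase) were chosen by gene identifier and the others by their annotation text.

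The strain Dmxr1 was compared with its parent GS115. In Dmxr1 a zeocin resistance cassette disrupts the coding region of *MXR1*, which encodes the zinc finger protein Mxr1p, a transcription factor. GS115 is wild type for *MXR1*, and the labels describe it as a histidine auxotroph. The cells of both strains had spent 14 h in yeast nitrogen base with ethanol, a minimal medium, and each strain was represented by 2 RNA sequencing libraries made after depletion of ribosomal RNA. The libraries held 25524047 and 27988540 counts in Dmxr1, against 24140235 and 29402357 in GS115. On ethanol the mutant grew more slowly according to the study, so an effect of the growth rate and an effect of the missing factor cannot be told apart.

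Methanol is oxidised in the peroxisome by alcohol oxidase, which yields formaldehyde and hydrogen peroxide, and catalase breaks the peroxide down. Formaldehyde is then either oxidised in the cytosol by formaldehyde, S-formylglutathione and formate enzymes, a route that yields NADH and carbon dioxide, or joined to xylulose 5-phosphate by dihydroxyacetone synthase. The second route gives dihydroxyacetone, which dihydroxyacetone kinase phosphorylates, and its sugar phosphates enter biosynthesis. Of these genes, the study names those of AOX1, dihydroxyacetone synthase, formaldehyde dehydrogenase and formate dehydrogenase as activated by Mxr1p on methanol. AOX1 is known as a gene that methanol induces and ethanol represses.

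On ethanol, formate dehydrogenase and AOX1 were lower in Dmxr1 and the other 7 members were not called. A gene was called at an adjusted p of at most 0.05 with a log2 fold change of at least 1 in size, where the fold change is Dmxr1 over GS115. By edgeR's quasi-likelihood test 2 of 9 members were called lower and 0 higher, beside 3.26% of all 5425 genes tested called lower and 0.535% called higher. At an unadjusted p under 0.05 the members numbered 3 lower and 0 higher, beside 18.5% and 13.5% of all genes. DESeq2 called 2 members lower and 0 higher, beside 3.13% and 0.516% of all genes. By the adjusted p alone 3 members were lower and 0 higher, beside 10.5% and 5.07% of all genes. These 3, formate dehydrogenase, AOX1 and catalase, were the members chosen by identifier, and the members were chosen with earlier results of these data known. The members chosen by annotation text passed at none of these settings. The shares of all genes are therefore no test of the members as a set. Among the members the median log2 fold change was -0.24, against 0.004 over all genes. Of the 9, 8 were negative, as were 2687 of all 5425 genes. In both Dmxr1 libraries 4 members lay below both GS115 libraries, as 31.3% of all genes did, and 1 lay above, as 31.1% did. The other 4 overlapped between the strains.

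**Figure D1:**
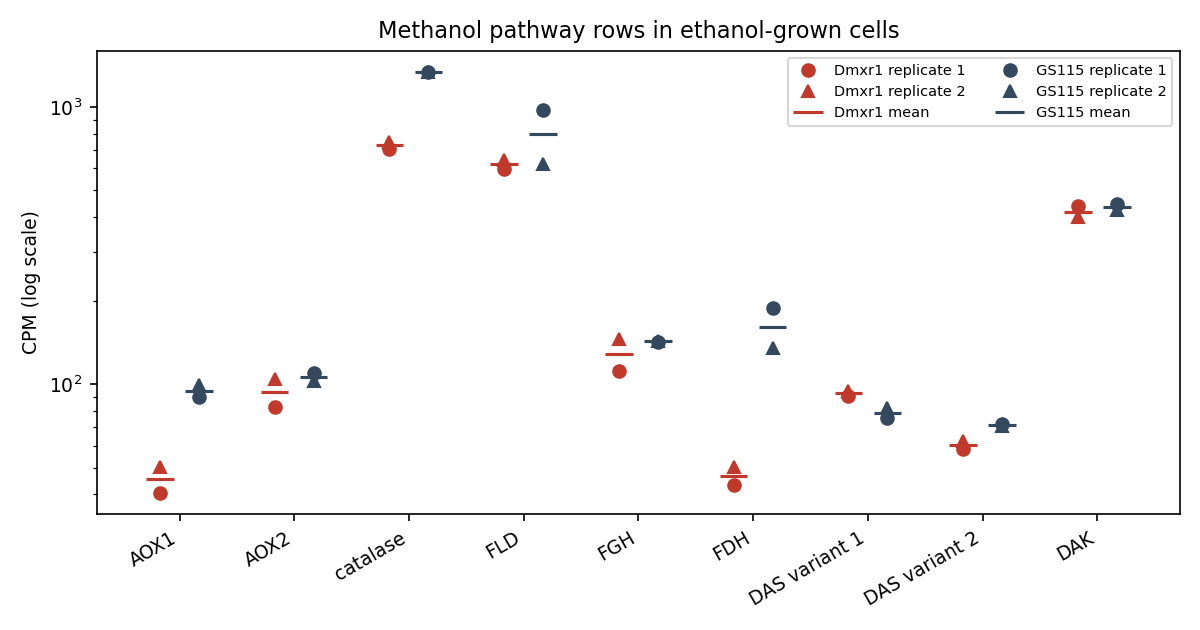
Counts scaled to library size (CPM, log axis) of the 9 methanol pathway rows, with Dmxr1 in red on the left and GS115 in blue on the right of each pair; circles and triangles are replicates 1 and 2 and bars are the means. The strains separate most for AOX1, catalase and FDH, whereas AOX2, FLD, FGH and DAK overlap.

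Together the 9 rows took 0.228% and 0.232% of the counts of the Dmxr1 libraries, against 0.305% and 0.322% in GS115. Without catalase, which held the most counts of the 9 in every library, the shares were 0.154% and 0.156% in Dmxr1 and 0.186% and 0.179% in GS115. The Dmxr1 shares lay below both GS115 shares with and without catalase. Levels were not compared between different genes, because no gene lengths were used and a longer transcript collects more reads.

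Of the alcohol oxidase pair, which opens the pathway, AOX1 was called lower and AOX2 was not, and the difference between their fold changes was not tested. AOX1 (ACIB2EUKG772156, on chromosome 4 by its locus tag), the main alcohol oxidase of methanol-grown cells, had 40.6 and 50.3 CPM (counts scaled to the library's adjusted size) in Dmxr1, against 89.8 and 99.4 CPM in GS115. Both Dmxr1 libraries were well under both GS115 libraries, with 1090 and 1417 counts behind the Dmxr1 values and 1922 and 3110 behind the GS115 values. The means were 45.4 ± 6.85 and 94.6 ± 6.78 CPM (SD, n = 2 each). AOX1 thus had a log2 fold change of -1.06 (SE 0.18, 95% confidence interval -1.43 to -0.68, edgeR adjusted p = 0.0015), which is 2.08-fold lower. Of all genes tested, 2.58% had a lower log2 fold change than AOX1.

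AOX2 (ACIB2EUKG772902, chromosome 4), which encodes the minor alcohol oxidase of a sequence close to that of AOX1, had 82.8 and 105 CPM in Dmxr1 and 110 and 102 CPM in GS115. The strains overlapped. Its log2 fold change was -0.18 (95% confidence interval -0.55 to 0.19, edgeR adjusted p = 0.507), an interval that leaves out a change as large as the one measured for AOX1. The table describes this row as alcohol oxidase 1 and its UniRef name is alcohol oxidase 2.

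Within the pair, AOX1 took 32.9% (95% Wilson interval 31.3 to 34.5) and 32.5% (31.1 to 33.9) of the counts in the Dmxr1 libraries. In GS115 it took 45.0% (43.5 to 46.5) and 49.3% (48.0 to 50.5). The mix of the pair thus held less AOX1 in each Dmxr1 library than in each GS115 library. The intervals cover counting error only, and the difference in share was not tested. The sources used here do not give how reads that align to both genes were counted, and the split between the rows is uncertain. With the pair summed to 1 row the log2 fold change was -0.53 (edgeR adjusted p = 0.0642), which was not called.

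**Figure D2:**
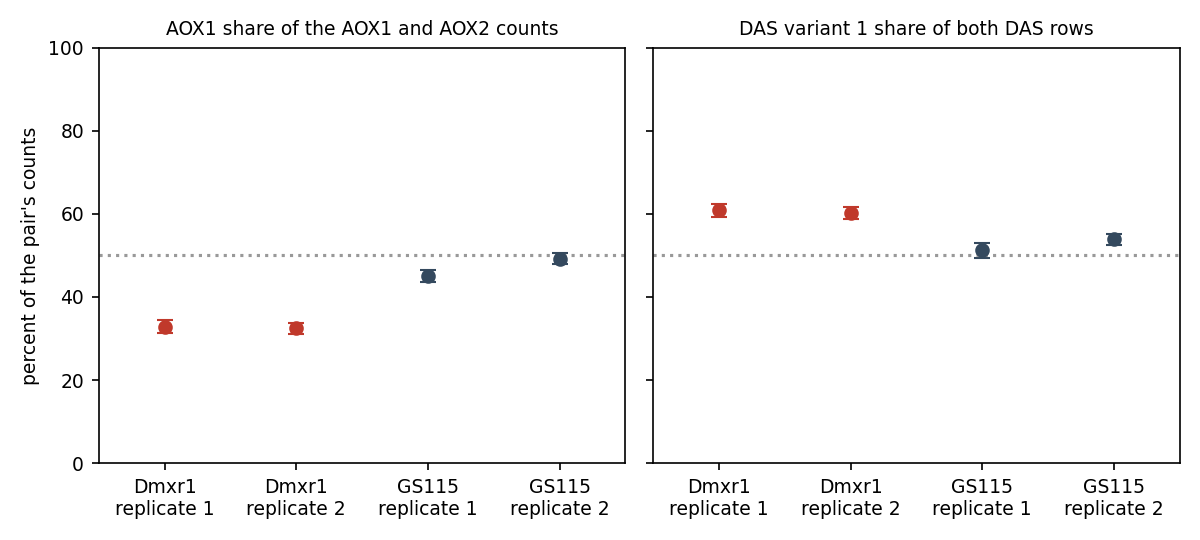
Share of the pair's counts held by AOX1 (left panel, of AOX1 and AOX2) and by DAS variant 1 (right panel, of both dihydroxyacetone synthase rows), in percent, with Dmxr1 libraries in red and GS115 libraries in blue; bars are 95% Wilson intervals and the dotted line marks equal shares. AOX1 held 32.5% to 32.9% in Dmxr1 against 45.0% to 49.3% in GS115, and DAS variant 1 held 60.3% to 60.9% in Dmxr1 against 51.2% to 53.9% in GS115.

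The AOX1 call sat near the fold threshold. AOX1 was called in 8 of 12 alternatives of scaling, tool, filter, left-out library and replicate block, with log2 fold changes from -1.22 to -0.91. The 12 include a crossed replicate block that was chosen after seeing the data. They leave out the summed pair and edgeR's test against the fold threshold itself, and AOX1 was called in neither. A fit without 1 library leaves that strain with a lone library, which is assumed to vary like those of the other strain. Its value was -0.91 without Dmxr1 replicate 1 and -0.98 without GS115 replicate 2.

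Peroxisomal catalase (ACIB2EUKG769524, chromosome 2) had 707 and 750 CPM in Dmxr1, against 1339.4 and 1338.8 CPM in GS115. The GS115 libraries were almost equal and both Dmxr1 libraries lay far below them. The means were 729 ± 30.8 and 1339 ± 0.435 CPM (SD, n = 2 each). Its log2 fold change was -0.88 (SE 0.20, 95% confidence interval -1.31 to -0.45), which is 1.84-fold lower. It passed the adjusted p in edgeR (0.00951) and missed the fold threshold, so it was not called. Without Dmxr1 replicate 1 the log2 fold change was -0.84 with an adjusted p of 0.135, and over the 12 alternatives it ranged between -0.92 and -0.80.

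Of the 3 enzymes that oxidise formaldehyde to carbon dioxide, the last, FDH, was called lower with the lowest fold change of the members, and the other two were not called. FDH, the NAD-dependent formate dehydrogenase that releases carbon dioxide (ACIB2EUKG771003, chromosome 3), had 43.2 and 50.2 CPM in Dmxr1, against 187 and 135 CPM in GS115. Each GS115 library was far above each Dmxr1 library, and the GS115 libraries differed more from one another than the Dmxr1 libraries did. The counts behind these values were 1160 and 1415 in Dmxr1 and 4012 and 4225 in GS115.

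FDH averaged 46.7 ± 4.95 CPM in Dmxr1 and 161 ± 37.1 CPM in GS115 (SD, n = 2 each). This was a log2 fold change of -1.79 (SE 0.19, 95% confidence interval -2.20 to -1.38, edgeR adjusted p = 3.84e-05), which is 3.45-fold lower. By log2 fold change FDH was number 18 from the lowest of 5425 genes. It was called in all 12 alternatives, with log2 fold changes from -2.01 to -1.53, and it also passed edgeR's test against the fold threshold itself.

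FLD, the glutathione-dependent formaldehyde dehydrogenase (ACIB2EUKG770901, chromosome 3), had 596 and 646 CPM in Dmxr1 and 977 and 625 CPM in GS115. GS115 replicate 1 stood above the other 3 libraries, and GS115 replicate 2 lay between the Dmxr1 values. FLD had a log2 fold change of -0.37 (95% confidence interval -0.85 to 0.12, edgeR adjusted p = 0.285). The value rested on 1 library, being -0.01 without GS115 replicate 1 and -0.65 (adjusted p = 0.0455) without GS115 replicate 2.

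FGH, the S-formylglutathione hydrolase between these steps (ACIB2EUKG771079, chromosome 3), had 111 and 145 CPM in Dmxr1 and 142 and 143 CPM in GS115. The strains overlapped, and Dmxr1 replicate 1 was the low one. Its log2 fold change was -0.16 (95% confidence interval -0.54 to 0.23, edgeR adjusted p = 0.584). It was 0.02, the other way, without Dmxr1 replicate 1.

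**Figure D3:**
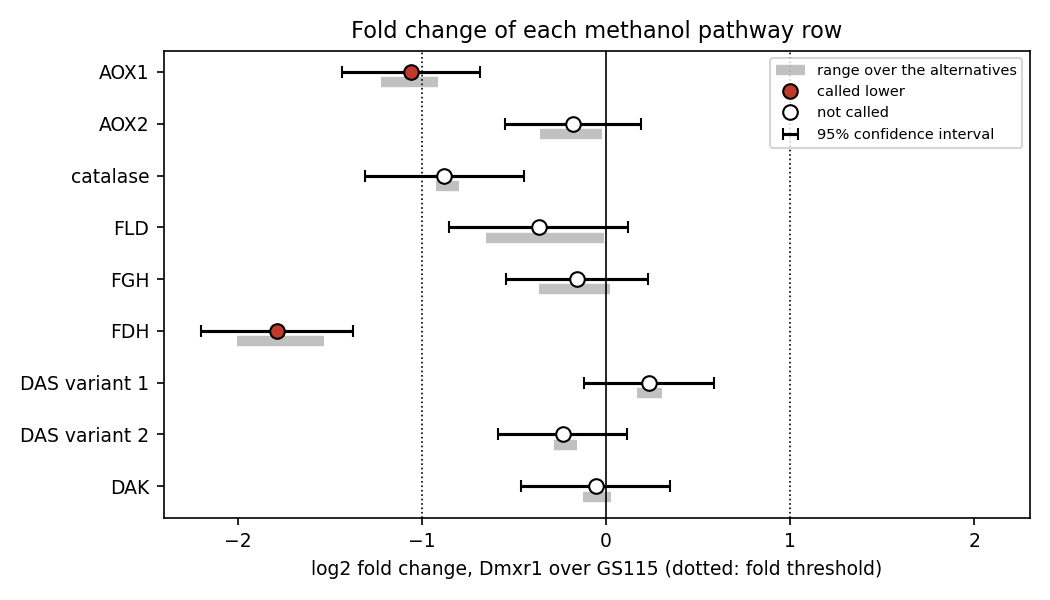
Log2 fold change, Dmxr1 over GS115, of each methanol pathway row with its 95% confidence interval (black) and its range over 12 alternatives (grey); filled points were called lower and dotted lines mark the fold threshold. The whole FDH interval (-2.20 to -1.38) lies beyond the threshold, whereas the AOX1 interval (-1.43 to -0.68) spans it.

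On the assimilation side 0 of 3 members were called in either direction. The dihydroxyacetone synthase rows, whose enzyme joins formaldehyde to a sugar phosphate, had fold changes of opposite sign and similar size, neither of which passed the test. DAS variant 1 (ACIB2EUKG771118, chromosome 3) had 90.9 and 94.3 CPM in Dmxr1, against 75.1 and 82.3 CPM in GS115. Both Dmxr1 libraries lay above both GS115 libraries. The log2 fold change was 0.23 (95% confidence interval -0.12 to 0.59, edgeR adjusted p = 0.348).

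DAS variant 2 (ACIB2EUKG771116), separated from variant 1 by 1 row of the table, had 58.5 and 62.2 CPM in Dmxr1, against 71.6 and 70.5 CPM in GS115. Both Dmxr1 libraries lay below both GS115 libraries. The log2 fold change was -0.24 (95% confidence interval -0.59 to 0.11, edgeR adjusted p = 0.341). With both rows summed it was 0.03 (adjusted p = 0.924).

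Variant 1 held 60.9% (95% Wilson interval 59.4 to 62.4) and 60.3% (58.8 to 61.7) of the counts of both rows in Dmxr1. In GS115 it held 51.2% (49.5 to 53.0) and 53.9% (52.4 to 55.3). The share was higher in each Dmxr1 library, a difference that was not tested. As with the alcohol oxidases, the rows are close copies and how shared reads were handled is not known here.

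DAK, the dihydroxyacetone kinase that phosphorylates the product of the synthase (ACIB2EUKG771110, chromosome 3), had 438 and 400 CPM in Dmxr1 and 446 and 426 CPM in GS115. The strains overlapped. The log2 fold change was -0.06 (95% confidence interval -0.46 to 0.35, edgeR adjusted p = 0.862). That interval leaves out a change of the size of the fold threshold in either direction, as do those of AOX2, FGH and both DAS rows. The interval of FLD does so as well, with its lower end at -0.85.

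By locus tag 6 members lay on chromosome 3, 2 on chromosome 4 and 1 on chromosome 2, and the called AOX1 and FDH lay on chromosomes 4 and 3. The KEGG methane metabolism map held 4 of the 9, namely FLD, FGH, FDH and DAK, of which FDH was called. The rows on either side of AOX1 had log2 fold changes of 0.18 and -0.30 (edgeR adjusted p = 0.494 and 0.408), and those beside FDH had 0.09 and -0.57 (adjusted p = 0.752 and 0.175). Among the rows that adjoin a member only the one before DAS variant 2 was called. It is an RNA row with no gene identifier or description, at 3.76 and 5.43 CPM in Dmxr1 and 11.8 and 8.92 CPM in GS115 (log2 fold change -1.16, adjusted p = 0.00686). That call was lost without Dmxr1 replicate 1 (-0.92, adjusted p = 0.0719) and without GS115 replicate 1 (-0.96, adjusted p = 0.045). The row held at most 279 counts in a library, and the sources used here give no strand setting for the counting.

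**Figure D4:**
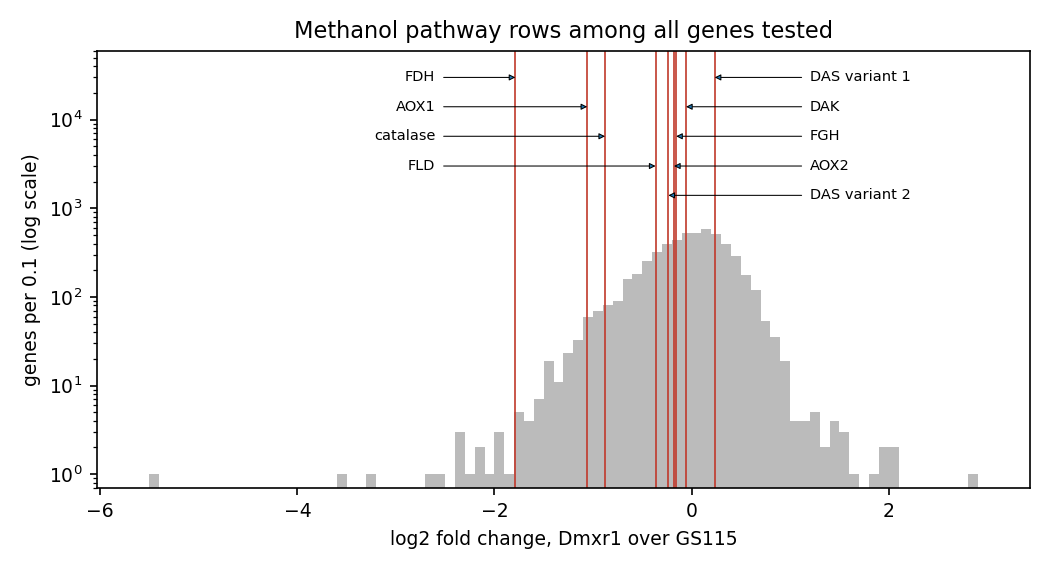
Number of genes (log axis) by log2 fold change, Dmxr1 over GS115, for the 5425 genes tested, in steps of 0.1, with a red line at each methanol pathway row. FDH (-1.79) and AOX1 (-1.06) lie in the lower tail, and 6 of the 9 rows lie between -0.37 and 0.23.

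For each member chosen by identifier the 3 rows with the most similar pattern were found by the Euclidean distance of log2 CPM, centred on the mean of the 4 libraries. For FDH these were an aldehyde dehydrogenase row (ACIB2EUKG770202, distance 0.241, log2 fold change -1.72), ACIB2EUKG771841 (distance 0.252, -1.75) and ACIB2EUKG771083. The last is annotated as autophagy-related protein 30, which is known in this yeast as a receptor for the breakdown of peroxisomes (distance 0.293, log2 fold change -1.73). The aldehyde dehydrogenase row was called lower (edgeR adjusted p = 0.000402). By quantitative PCR on ethanol, the study found lower mRNA only for the most downregulated aldehyde dehydrogenase gene, which is a different row. Whether the row named here is another of the genes measured there was not established. If it is, its decrease differs from that result.

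For AOX1 they were ACIB2EUKG770201 (distance 0.066, log2 fold change -1.08), the Elongator complex subunit ACIB2EUKG770449 (0.095, -1.02) and ACIB2EUKG773016 (0.113, -1.10). Of these, ACIB2EUKG770201 adjoins the aldehyde dehydrogenase row ACIB2EUKG770202 in the table. ACIB2EUKG773016 adjoins ALD6-1 (ACIB2EUKG773017), the aldehyde dehydrogenase with the lowest log2 fold change of all genes at -5.42. Whether reads of these neighbours were shared was not tested.

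For catalase they were a zinc finger protein (ACIB2EUKG771736, distance 0.038, log2 fold change -0.88), a dicarboxylic amino acid permease (ACIB2EUKG771826, 0.069, -0.85) and a peripheral peroxisomal membrane peroxin (ACIB2EUKG771817, 0.074, -0.83). None of these 3 was called by edgeR. Rows chosen for nearness to a member have fold changes near its own by that choice. With 4 libraries a small distance describes the level in these libraries and is no sign of shared control.

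Other enzymes that serve the pathway were taken from annotation lists without the 9 members. The xylulose monophosphate cycle rebuilds the acceptor sugar of dihydroxyacetone synthase by aldolase, bisphosphatase and pentose phosphate reactions. Of its 13 genes 0 were called in either direction by edgeR or DESeq2. Of all genes edgeR called 3.26% lower and 0.535% higher, and DESeq2 3.13% and 0.516%. At an unadjusted p under 0.05 there were 2 lower and 3 higher of the 13, beside 18.5% and 13.5% of all genes. By the adjusted p alone the 13 had 0 and 0, beside 10.5% and 5.07%. Their median was 0.06 on the log2 scale, and it was -0.02 without Dmxr1 replicate 2 and without GS115 replicate 2. The smallest adjusted p belonged to a ribose-5-phosphate isomerase row (ACIB2EUKG772835), at 67.2 and 57.0 CPM in Dmxr1 and 41.0 and 45.7 CPM in GS115 (log2 fold change 0.52, edgeR adjusted p = 0.0538). Next was a ribulose-phosphate 3-epimerase row (ACIB2EUKG771537), with a log2 fold change of 0.47 (adjusted p = 0.083). The other rows annotated as these enzymes had log2 fold changes of -0.105 (isomerase, ACIB2EUKG772836) and 0.06 (epimerase, ACIB2EUKG771538). The 2 lower at the unadjusted p were an aldolase row (ACIB2EUKG768418, -0.42) and a transaldolase row (ACIB2EUKG769759, -0.44). Of the 13, 4 were negative and 9 positive.

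Enzymes that remove peroxide other than the catalase, with those that make glutathione or keep glutathione and thioredoxin reduced, had 0 of 12 called in either direction by edgeR or DESeq2. The shares of all genes were 3.26% lower and 0.535% higher in edgeR, and 3.13% and 0.516% in DESeq2. At an unadjusted p under 0.05 the list had 0 lower and 3 higher, beside 18.5% and 13.5% of all genes. By the adjusted p alone 0 were lower and 3 higher, beside 10.5% and 5.07%. Their median was 0.18 on the log2 scale. A thiol peroxidase row (ACIB2EUKG768742) had 113 and 87.8 CPM in Dmxr1 and 61.3 and 55.5 CPM in GS115 (log2 fold change 0.78, edgeR adjusted p = 0.0091). A row described as mitochondrial peroxiredoxin (ACIB2EUKG768536) had 1147 and 1033 CPM in Dmxr1 and 693 and 527 CPM in GS115 (log2 fold change 0.84, adjusted p = 0.0162). Without Dmxr1 replicate 1 the adjusted p was 0.168 for the thiol peroxidase and 0.14 for the peroxiredoxin. For the peroxiredoxin it was also 0.0601 without GS115 replicate 2 and 0.0507 with the replicate number as a block.

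Peroxins build the peroxisome and bring alcohol oxidase, dihydroxyacetone synthase and catalase into it. The peroxisomal import list held 25 rows annotated as peroxins or as other peroxisomal membrane or biogenesis proteins. Of these, 4 were called lower and 0 higher, beside 3.26% and 0.535% of all genes. DESeq2 called 3 lower and 0 higher, beside 3.13% and 0.516%. At an unadjusted p under 0.05 there were 19 lower and 0 higher, beside 18.5% and 13.5% of all genes, and by the adjusted p alone 14 and 0, beside 10.5% and 5.07%. Their median was -0.55 on the log2 scale, and 23 of 25 were negative, as were 2687 of all 5425 genes. A protein required for the translocation of matrix proteins (ACIB2EUKG769612) had 93.1 and 163 CPM in Dmxr1 and 332 and 288 CPM in GS115, and a log2 fold change of -1.28 (edgeR adjusted p = 0.00287). PEX25 (ACIB2EUKG771818), a membrane protein of peroxisome proliferation, had 17.8 and 20.9 CPM in Dmxr1 and 49.7 and 43.3 CPM in GS115, and a log2 fold change of -1.26 (adjusted p = 0.000455). For both genes each Dmxr1 library lay below each GS115 library. PEX8 (ACIB2EUKG768931), which acts in matrix import, and a peroxisomal ubiquitin-conjugating enzyme (ACIB2EUKG772507) had log2 fold changes of -1.02 and -1.002 (adjusted p = 0.00246 and 0.00404). The count called lower was 1 without Dmxr1 replicate 1 and 2 without GS115 replicate 2.

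**Figure D5:**
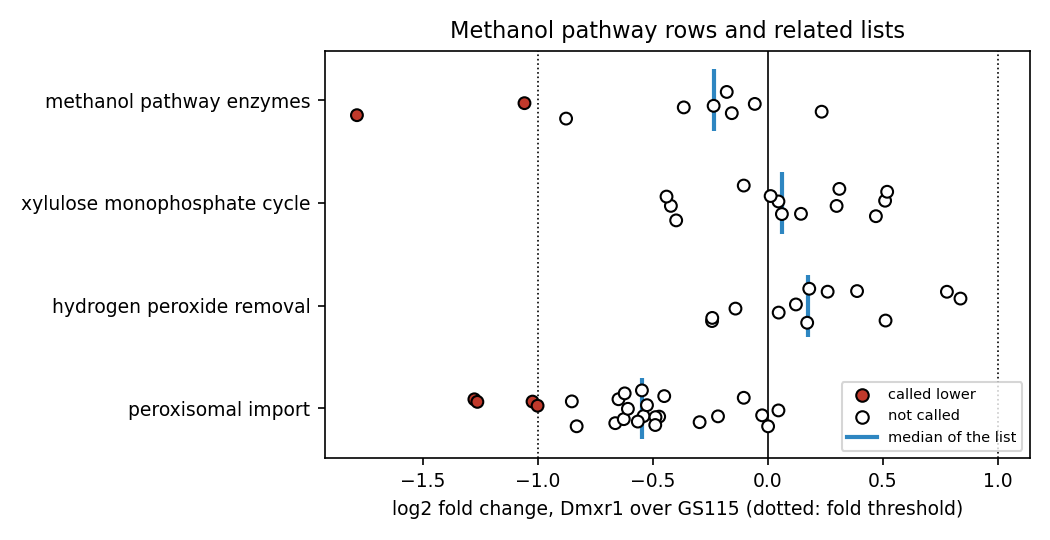
Log2 fold change, Dmxr1 over GS115, of the 9 methanol pathway rows and of 3 related lists (13, 12 and 25 genes); filled points were called lower, open points were not called, blue bars are medians and points are spread vertically for legibility. The medians are -0.24 for the pathway rows, 0.06 for the xylulose monophosphate cycle, 0.18 for peroxide removal and -0.55 for peroxisomal import.

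*MXR1* itself (ACIB2EUKG772516) had 206 and 258 CPM in Dmxr1 and 287 and 405 CPM in GS115, with a log2 fold change of -0.58 (SE 0.21, edgeR adjusted p = 0.0787). The row is counted over the whole gene and does not separate the disrupted part from what is left in place, so it does not check the labels.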

How the data were processed

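Total RNA of 4 cultures, 2 per strain, was depleted of ribosomal RNA and sequenced. The submitters' processing notes name bcl2fastq 2.19.0.316, fastp 0.19.6 for trimming, Bowtie2 as the aligner and featureCounts 1.6.4 as the counter. The deposited values are raw counts per gene, made by the authors against the *K. phaffii* genome that the methods name and not normalized. The sources used here state neither the strand setting nor how multiply aligned reads were treated. Of the rows, 162 had no gene identifier (0.63% of the counts), and they were kept.

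A gene was kept if 2 libraries or more held at least 5 counts, which left 5425, and tested with edgeR 4.0.16 in R 4.3.3, using TMM scaling, the quasi-likelihood test and p-values adjusted by Benjamini-Hochberg across the whole table. CPM uses TMM-adjusted library sizes, and similarity of pattern used a prior count of 2. DESeq2 1.42.0 was an alternative. P-values set the strain difference against the spread between the 2 libraries of each strain, pooled over both strains and moderated across genes. The study's methods describe the libraries of a strain as duplicate cultures. Replicates of a strain differed by far more than counting noise (chi-square per degree of freedom 93.2 in Dmxr1 and 173 in GS115), so none was counted as a copy of another.

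The pathway members and lists were chosen with earlier results of these data known. Lists were matched by annotation text, and 3 matches whose annotation named another function were removed. Named were every member, called members of a list or otherwise the 2 with the smallest adjusted p, *MXR1*, the nearest patterns and called rows beside a member. ALD6-1 and further rows of the xylulose monophosphate cycle list were named besides, after their values were seen.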

Additional observations from a re-analysis of the deposited data

How the results depend on the processing

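FDH was called lower under each scaling, tool, filter, block and threshold tried, and with each library left out. The p-values with a library left out take their spread from the other strain's pair and the estimate shared across genes, and they are weak evidence of stability. The count of methanol pathway rows called lower, 2, was 1 with upper-quartile scaling, with library size alone and in edgeR's test against the fold threshold (glmTreat), and between 1 and 2 with a library left out. The lost call was AOX1, whose log2 fold change was -0.999 and -0.99 under those scalings. In the peroxisomal import list the 4 rows called lower became 2 with upper-quartile scaling and 2 with library size alone. They became 14 by the adjusted p alone and 0 in glmTreat. Of the peroxide removal genes 3 were called higher by the adjusted p alone, and 0 to 1 with a library left out. Over all genes 177 lower and 29 higher became 567 and 275 by the adjusted p alone, 16 and 5 in glmTreat, and 94 to 290 lower and 23 to 56 higher with a library left out. Signs turned in FGH (-0.362 to 0.023 with a library left out), DAK (0.007 with upper-quartile scaling, 0.026 with library size alone, -0.124 to 0.006 with a library left out) and DAS variant 2 (0.03 with its pair summed), none of them called, and in the xylulose monophosphate cycle median (-0.022 to 0.215 with a library left out). The causes were not tested.

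The replicate numbers are shared by name only, and the deviations of same-numbered libraries correlated at -0.14. With the replicate block 2 pathway rows and 151 genes in all were called lower and 28 higher. With crossed pairing, chosen after seeing the data, these were 2, 169 and 29. With 2 libraries per strain the spread is estimated with little information.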
